A study of Drosophila melanogaster with 4 samples.

Results

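The regions described here are narrow stretches of the body of the X chromosome that were enriched for HP2 in Drosophila melanogaster larvae. They were chosen from the combined list of enriched regions, which the authors called on the replicate set as a whole. A region was taken when its midpoint lay on the X beyond the distal 1 Mb and no farther than position 19422827 (FlyBase release 5), and its width was under 4 kb. The centromere-proximal 3 Mb of the arm are thereby left out as well. The rule gave 1664 regions, out of 2114 combined regions on the whole X and 12660 in the genome. Within the same stretch of the X, 138 further combined regions were at least 4 kb wide and were left out. Each region was then marked as overlapped, by at least 1 bp, in the list of ChIP replicate 1, of ChIP replicate 2, of both or of neither. The place, the width and the calls in the combined list thus chose the regions, and these values are given as a description without a test.

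The study mapped HP2 by chromatin immunoprecipitation with sequencing (ChIP-seq) in nuclei of larvae at the third instar, with the antibody Ab2-90. All 4 libraries came from the wild-type strain Oregon-R (Oregon-R-modENCODE), without treatment. There were 2 ChIP libraries and 2 input libraries, and each input served the ChIP library of the same number. No source used here states the sex of the larvae or whether separate collections gave the replicates, so differences between the replicates may be technical. Each region carries a score from the authors whose scale is not stated, so scores are compared only within a list. The lists hold no read counts, and the depth of the libraries is unknown.

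HP2 is the product of Su(var)2-HP2 and was found through its binding to HP1a, the heterochromatin protein that recognises a methylated lysine of histone H3. Mutations in Su(var)2-HP2 dominantly suppress position effect variegation, the patchy silencing of genes placed next to heterochromatin. HP1a and its partners are concentrated near centromeres and on chromosome 4, and are also seen at scattered sites in the gene-rich arms. The body of the X is such a gene-rich stretch, on the chromosome that males carry in a single copy and whose genes they upregulate through the MSL complex. Genes at the regions and the sequences of the regions were not analysed here, because no genome or annotation of release 5 was used.

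The narrow regions covered 2972 kb, or 16.1% of the 18.4 Mb of the X body. Their median width was 1564 bp and their median combined score 0.412. The widths ran from 1001 bp, the smallest width in the combined list, to 3999 bp. Just inside the width limit were X 1213524 to 1217522 (3999 bp, score 0.568), X 6891732 to 6895724 (3993 bp, 0.761) and X 13051604 to 13055586 (3983 bp, 0.445). Just outside it were X 16554976 to 16558986 (4011 bp, 0.463), X 9042008 to 9046038 (4031 bp, 0.640) and X 16450884 to 16454914 (4031 bp, 0.500). The scores on the inner and the outer side of the limit overlapped.

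Most of the narrow regions were seen in 1 replicate at most. Of the 1664 regions, 204 or 12.3% (exact 95% binomial interval 10.7 to 13.9%) were overlapped in both replicates. The background was 15.6% of 4495 narrow regions in the bodies of 2L, 3L and 3R, bounded in the same way, and 22.3% of all 12660 combined regions. A further 559 regions of the X, or 33.6% (31.3 to 35.9%), were overlapped only in replicate 2, against 23.6% on the autosomal bodies and 29.9% of all combined regions. Only 52 regions, or 3.12% (2.34 to 4.08%), were overlapped in replicate 1 alone, against 6.12% on the autosomal bodies and 3.82% of all combined regions. The remaining 849 regions, or 51.0% (48.6 to 53.4%), had no counterpart in either replicate, against 54.7% on the autosomal bodies and 43.9% of all combined regions. Counting error is all that these intervals cover, and regions that lie side by side are not independent.

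The share of X regions found in replicate 2 was higher, and the share found in replicate 1 lower, than on each autosomal body. Counting every overlap, 763 or 45.9% of the X regions were found in replicate 2, against 40.3% on 2L, 40.4% on 3L and 37.4% on 3R, which is 39.2% of these 3 bodies together and 52.2% of all combined regions. In replicate 1 it was 256 or 15.4% of the X regions, against 21.2% on 2L, 22.5% on 3L and 21.3% on 3R, which is 21.7% of these bodies together and 26.2% of all combined regions. The body of 2R, added to the comparison after the data were seen, lay with the other autosomes, at 41.3% in replicate 2 and 21.4% in replicate 1. No difference between the arms is called from a test here, since the exact two-sided sign-flip test over 2 replicates cannot give a p under 0.5.

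Members of the X list seldom shared a replicate cluster. The 256 regions overlapped in replicate 1 fell on 257 separate clusters of that list, none of which was shared by several regions. The 763 regions overlapped in replicate 2 fell on 758 clusters, of which 25 lay under 2 regions each. The replicate counterparts were mostly narrow as well. The best-scoring counterpart was at least 4 kb wide for 1 of the 256 regions in replicate 1 and for 16 of the 763 in replicate 2.

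The width of a region went with how often it had a counterpart in the replicate lists. Among the 501 X regions from 1 to 1.25 kb wide, 0 were overlapped in both replicates, 8.58% were found in replicate 2 and 1.80% in replicate 1. Among the 410 regions from 1.5 to 2 kb, 16 or 3.90% were found in both, 52.2% in replicate 2 and 8.29% in replicate 1. Among the 155 regions from 3 to 4 kb, 54.8% were found in both, 95.5% (90.9 to 98.2%) in replicate 2 and 55.5% (47.3 to 63.5%) in replicate 1. Nearly all of the widest members thus had a counterpart in replicate 2, and far fewer had one in replicate 1. The replicate lists hold no cluster narrower than 1301 bp, and 555 of the X members (33.4%) were narrower than that. A wider region can also meet the 1 bp overlap at more positions, and the part of this in the rise was not tested. The combined and the replicate lists come from the same libraries.

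The same rise with width was seen on the autosomal bodies, and the shares were also compared at matched widths. In all 6 width bins the share found in replicate 1 was lower on the X than on each of 2L, 3L and 3R, and the share found in replicate 2 was higher. Against 2R each held in 5 of 6 bins. The exceptions were replicate 1 from 1 to 1.25 kb, with 1.80% on the X and 1.76% on 2R, and replicate 2 from 2 to 2.5 kb, with 78.9% on the X and 80.4% on 2R. In these same bins the gaps to other arms were small as well, with 1.85% on 3L in replicate 1 and 78.1% on 3R in replicate 2. All bins rest on the same 2 ChIP libraries. From 2 to 2.5 kb, 31.9% (25.5 to 38.7%) of the X regions and 48.5% (44.1 to 53.0%) of the 503 regions on 2L, 3L and 3R were found in replicate 1. From 3 to 4 kb it was 55.5% on the X and 72.3% (67.5 to 76.7%) on the autosomal bodies. In replicate 2 the shares from 2 to 2.5 kb were 78.9% on the X and 77.5% on the autosomal bodies, and from 3 to 4 kb 95.5% and 90.2%. From 1.25 to 1.5 kb, 30.4% (24.9 to 36.4%) of the X regions and 21.6% (18.7 to 24.7%) of the autosomal regions were found in replicate 2.

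**Figure D1:**
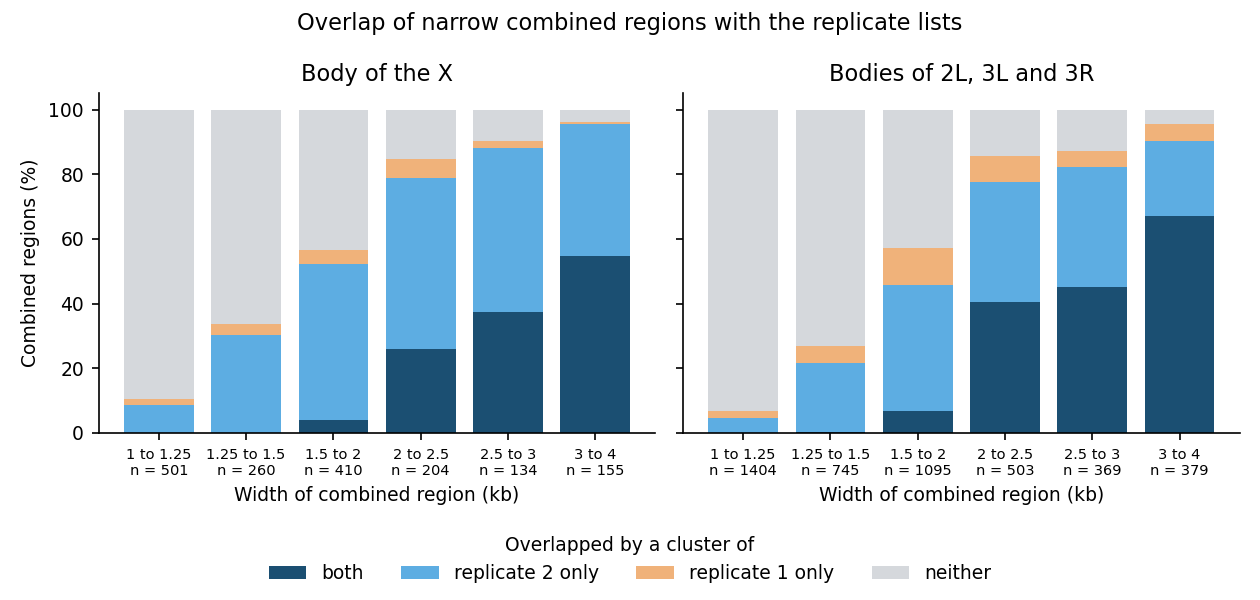
Share of narrow combined regions (%, vertical axis) that were overlapped by a cluster of both replicates, of 1 replicate or of neither, by width of the region in kb, for the body of the X (left) and the bodies of 2L, 3L and 3R together (right). Regions found in both replicates made up 0 of the narrowest X bin and 54.8% of the widest, against 67.0% of the widest autosomal bin.

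The replicate lists were also filtered by the same rule without use of the combined list. The replicate 1 list held 396 clusters under 4 kb in the X body, out of 402 of any width there, and the replicate 2 list 865 out of 933. The density of narrow clusters on the X was 21.5 per Mb in replicate 1, against 19.4 on 2L, 22.3 on 3L and 21.5 on 3R. In replicate 2 it was 47.0 per Mb, against 31.0, 35.0 and 32.8. The X thus lay within the range of these autosomes in replicate 1 and above them in replicate 2.

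The ratio of the X density to the mean of 2L, 3L and 3R was 1.02 in replicate 1 and 1.43 in replicate 2, with a mean of 1.22 ± 0.29 (SD, n = 2 libraries; exact two-sided sign-flip p = 0.5, the smallest that 2 replicates allow). The excess over the autosomes was smaller than the spread between replicates. With 2R among the autosomes the ratio was 0.94 in replicate 1 and 1.30 in replicate 2, with a mean of 1.12 ± 0.26 (SD, n = 2 libraries; exact two-sided sign-flip p = 1), so the direction differed between the replicates. In the combined list the density was 90.3 per Mb on the X, against 64.0 on 2L, 73.1 on 3L and 74.3 on 3R, a ratio of 1.28. On 2R the combined list gave 90.2 per Mb, the replicate 1 list 28.3 and the replicate 2 list 45.7. The density of narrow regions on the X was therefore matched by that of 1 autosomal arm in the combined list and in replicate 2, and exceeded by it in replicate 1. The replicate 2 list held 2.18 times as many narrow clusters per Mb as the replicate 1 list on the X, against 1.60 times on 2L, 1.57 times on 3L, 1.52 times on 3R and 1.61 times on 2R.

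**Figure D2:**
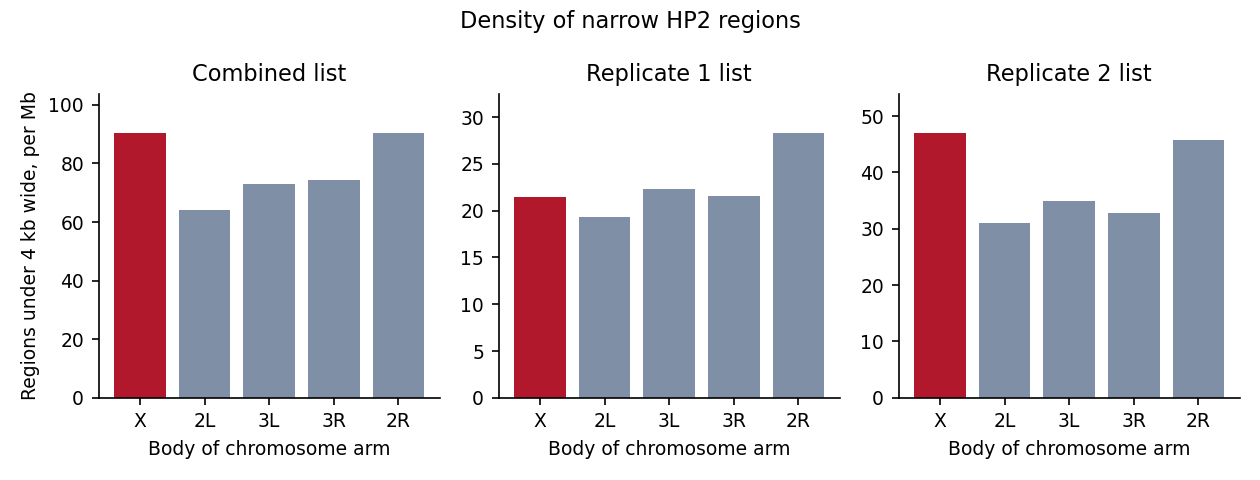
Density of regions under 4 kb wide (regions per Mb, vertical axes from 0, each list on its own scale) in the body of each chromosome arm, in the combined list and in the list of each ChIP replicate. The X bar stands at 90.3 per Mb (combined), 21.5 (replicate 1) and 47.0 (replicate 2), close to 2R in the combined list and in replicate 2 and below it in replicate 1.

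Narrow clusters of the X were found again in the other replicate to different degrees in each direction. Of the 396 narrow X clusters in replicate 1, 327 or 82.6% (78.5 to 86.2%) had a counterpart in replicate 2, against 75.3% on 2L, 75.2% on 3L and 77.9% on 3R. Of the 865 in replicate 2, 262 or 30.3% (27.2 to 33.5%) had a counterpart in replicate 1, against 41.6% on 2L, 43.2% on 3L and 46.0% on 3R. The higher density of replicate 2 clusters on the X, given above, moves with these shares, and its part in them was not tested. In replicate 2 the overlapped X clusters had a median score of 0.736 and a median width of 2378 bp, against 0.576 and 1703 bp for the other X clusters.

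Scores of the narrow regions were higher on the X than on the autosomal bodies in all 3 lists. In the combined list the median score was 0.412 on the X, against 0.348 on 2L, 0.346 on 3L and 0.350 on 3R. In replicate 1 the median was 0.586 on the X, against 0.497, 0.502 and 0.508 on the same arms, and in replicate 2 it was 0.604, against 0.508, 0.511 and 0.520. The X exceeded the mean of the 3 autosomal medians by 0.0840 in replicate 1 and 0.0909 in replicate 2. The mean difference of 0.0875 ± 0.0048 (SD, n = 2 libraries) was larger than the spread between replicates, with an exact two-sided sign-flip p of 0.5, the smallest possible. The 2R median was 0.350 (combined), 0.500 (replicate 1) and 0.521 (replicate 2), so the X also lay above that arm in each list.

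The shift was present from the lower to the upper part of the scores, except that at the top of the combined list the X lay within the range of the autosomes. In that list the 5th percentile was 0.278 on the X and 0.231 on the mean of the 3 autosomal bodies, and the 75th was 0.465 and 0.392. The 95th percentile was 0.662 on the X, which lay between 2L at 0.620 and 3R at 0.690. In the replicate lists the 95th percentile of the X exceeded that of all 3 arms, at 1.14 for replicate 1, against 0.898 to 0.996, and at 1.29 for replicate 2, against 1.18 to 1.27. Median widths were alike, at 1564 bp on the X against 1515 to 1553 bp on 2L, 3L and 3R in the combined list. In all 6 width bins, the median combined score of the X was above that of each autosomal body.

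**Figure D3:**
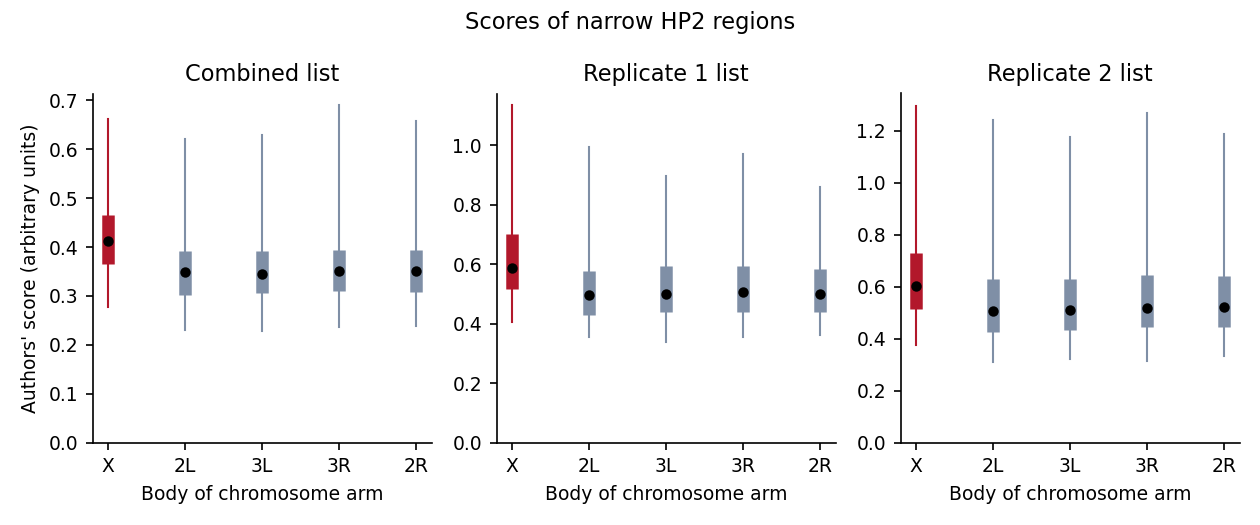
Scores of narrow regions (authors' units, vertical axes from 0) by arm in each list. Points are medians, thick bars span the 25th to 75th percentile and thin lines the 5th to 95th. The X median lies above those of all 4 autosomal bodies in each list, at 0.412, 0.586 and 0.604, while its 95th percentile in the combined list, 0.662, lies within their range.

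At a score limit set within each list and common to all arms, the X stood farther from the autosomes. At or above the median score of the whole combined list, 0.392, lay 1028 of the 1664 X regions, or 61.8% (59.4 to 64.1%), against 25.1% on 2L, 24.9% on 3L and 26.6% on 3R. The density of these regions on the X was 55.8 per Mb, which was 3.09 times the mean of the 3 autosomal bodies. In the replicate lists the limit was the median score of each whole list, 0.573 in replicate 1 and 0.632 in replicate 2. It kept 53.0% (48.0 to 58.0%) of narrow X clusters in replicate 1, against 25.5%, 28.8% and 29.7% on 2L, 3L and 3R. In replicate 2 it kept 43.6% (40.2 to 47.0%), against 24.6%, 24.9% and 27.6%. The X density was then 1.92 times the autosomal mean in replicate 1 and 2.42 times in replicate 2. With the score limit, the X stood above each autosomal arm in both replicates, which was not so for the lists as deposited. Since the limit is set on the score, which was higher on the X, these densities restate that shift and are no separate result.

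Within the X, the regions found in both replicates stood apart from the rest in score. Their median combined score was 0.581 (quartiles 0.465 and 0.824), against 0.403 for regions found only in replicate 2, 0.391 for those found only in replicate 1 and 0.403 for those found in neither. Their median width was 2814 bp, against 1893, 1722 and 1227 bp. The median scores of the last 3 groups thus lay close together, although their widths did not. On 2L, 3L and 3R together the pattern was the same, with 0.478 for regions found in both replicates. There the median was 0.342 for replicate 2 only, 0.325 for replicate 1 only and 0.341 for neither. The groups were not compared in score at matched widths. The combined score and the replicate calls also come from the same libraries, so these score differences are a description and no independent test. A combined score over 1 was reached by 32 of the 204 X regions found in both replicates. It was reached by 0 of the 559 found only in replicate 2 and by 0 of the 52 found only in replicate 1. It was also reached by 5 of the 849 regions found in neither. Scores over 1 were counted by group on the X only.

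The 10 highest-scoring regions found in both replicates lay between positions 1972260 and 18395140 of the X and measured from 2.24 to 3.61 kb. None of them lay between 3030246 and 9979092 or between 13458926 and 17792088. They are shown because they carry the highest scores of the narrow X regions that recurred. The first was X 12475458 to 12478508, with scores of 2.42 (combined), 2.03 (replicate 1) and 2.85 (replicate 2). The second was X 1972260 to 1975870, at 2.04, 1.90 and 2.66. The third was X 9979092 to 9981666, at 1.85, 1.47 and 2.26. These 3 were also the 3 highest of the 204 in each replicate list. X 13456684 to 13458926 followed, at 1.75, 1.26 and 2.09. X 10660850 to 10664262 (1.63, 1.30 and 2.12) and X 10637514 to 10641124 (1.51, 1.37 and 1.88) lay 19.7 kb apart and were the closest pair among the 10. The list ended with X 3027768 to 3030246 (1.496, 1.08 and 1.85), X 2503256 to 2505500 (1.48, 1.03 and 1.91), X 18392660 to 18395140 (1.47, 1.02 and 1.88) and X 17792088 to 17794810 (1.46, 1.34 and 1.65).

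Ranked by combined score, the strongest regions found in a single replicate were weaker. In replicate 2 alone the leading regions were X 16243290 to 16245814 (combined score 0.742, replicate 2 score 1.14), X 12790330 to 12792756 (0.724 and 1.09) and X 6483166 to 6486026 (0.689 and 0.916). In replicate 1 alone they were X 4177760 to 4178812 (combined score 0.528, replicate 1 score 0.747), X 10799738 to 10801872 (0.526 and 0.587) and X 13978090 to 13979140 (0.485 and 0.637). All 6 had combined scores under those of the 10 regions above. The replicate 2 regions were from 2427 to 2861 bp wide, and 2 of the replicate 1 regions were only 1053 and 1051 bp wide.

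The 2 highest combined scores among all narrow X regions belonged to very narrow regions that neither replicate list held. X 13999372 to 14000372 had a combined score of 3.05 and X 11433884 to 11434884 had 2.88. The next score, 2.42, was that of the leading region found in both replicates, and X 11078524 to 11079538, found in neither, followed with 2.20. The other 2 with a score over 1 were X 14180934 to 14181934 at 1.88 and X 14931710 to 14932710 at 1.52. Of these 5, 4 were exactly 1001 bp wide and the other 1015 bp. Most X regions with a combined score over 1 were nonetheless found in both replicates, 32 against these 5 found in neither. All 5 were narrower than 1301 bp, the smallest cluster width in either replicate list. A high combined score thus went with a counterpart in both replicates in most cases, but not in these very narrow regions. In all, 29 X regions had the smallest width of 1001 bp, 27 of them found in neither replicate. Among them, X 1647450 to 1648450, X 2184540 to 2185540 and X 2602186 to 2603186, the first 3 along the chromosome, had ordinary scores of 0.472, 0.430 and 0.428.

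Scores did not simply rise with width in the combined list. The median was 0.423 for X regions from 1 to 1.25 kb, 0.378 from 1.25 to 1.5 kb, 0.371 from 1.5 to 2 kb, 0.448 from 2 to 2.5 kb and 0.498 from 3 to 4 kb. The autosomal bodies had the same dip, at 0.356, 0.313, 0.317, 0.383 and 0.438 for the same bins. Scores of X regions were also often identical. In all, 312 regions (18.8%) shared their score, to 9 decimals, with another X region, and 15 had the score 0.465. Tied scores were counted on the X only, so they are not shown to be particular to it. Regions with a tied score made up 212 of the 849 found in neither replicate and 5 of the 204 found in both.

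Across the 204 X regions found in both replicates, the scores of the replicates ranked alike, with Spearman's rho of 0.61. The combined score followed that of replicate 2 (rho 0.95) more closely than that of replicate 1 (rho 0.68). On 2L, 3L and 3R rho between the replicates was 0.63, 0.64 and 0.67 over 181, 239 and 279 regions. The combined score of these arms also followed replicate 2 (rho 0.95, 0.94 and 0.93) more closely than replicate 1 (0.69, 0.73 and 0.77). These correlations are across regions, which share their libraries and are not independent replicates, and the combined list was called from the same libraries.

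**Figure D4:**
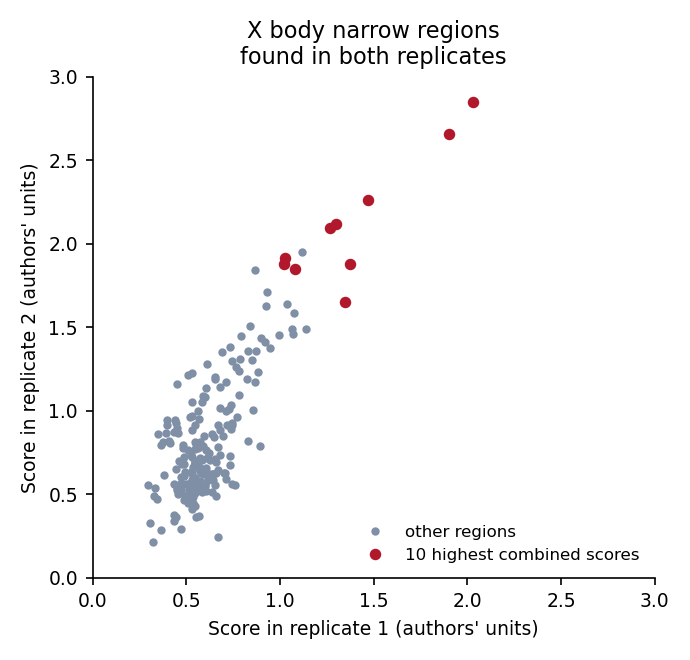
Score in replicate 1 (horizontal axis) against score in replicate 2 (vertical axis), in the authors' units, of the 204 narrow X regions overlapped in both replicates, with the best-scoring cluster taken in each list. The 10 regions with the highest combined scores, marked in red, score 1.02 to 2.03 on the horizontal and 1.65 to 2.85 on the vertical axis, and rho over all points is 0.61.

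The narrow regions were present along the whole X body. Among 18 full windows of 1 Mb, the number of regions ran from 62 to 128 with a median of 92, and the number found in both replicates from 7 to 17 with a median of 10.5. The fullest windows were the 2 distal ones, which end at 2000000 and 3000000, with 128 and 117 regions, followed by 16000001 to 17000000 with 111. The emptiest were 14000001 to 15000000 with 62, 3000001 to 4000000 with 66 and 7000001 to 8000000 with 67. The fall from 117 to 66 regions between neighbouring windows at position 3000000 was also seen in the replicate lists, with 23 and 13 narrow clusters in replicate 1 and 63 and 24 in replicate 2.

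The replicates ranked the windows alike although replicate 2 held more clusters. Replicate 1 counts ran from 9 to 39 and replicate 2 counts from 24 to 80, and both were highest in the first window. Spearman's rho between them was 0.80 over 18 windows, given as a description, since neighbouring windows share their libraries. The last, shorter window, 19000001 to 19422827, held 46 regions or 109 per Mb. The proximal side of the body, from 15000001 on, held 99 or more regions per Mb in every window. Between 3000001 and 15000000 the count was 100 in 1 window and lower in the other 11.

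**Figure D5:**
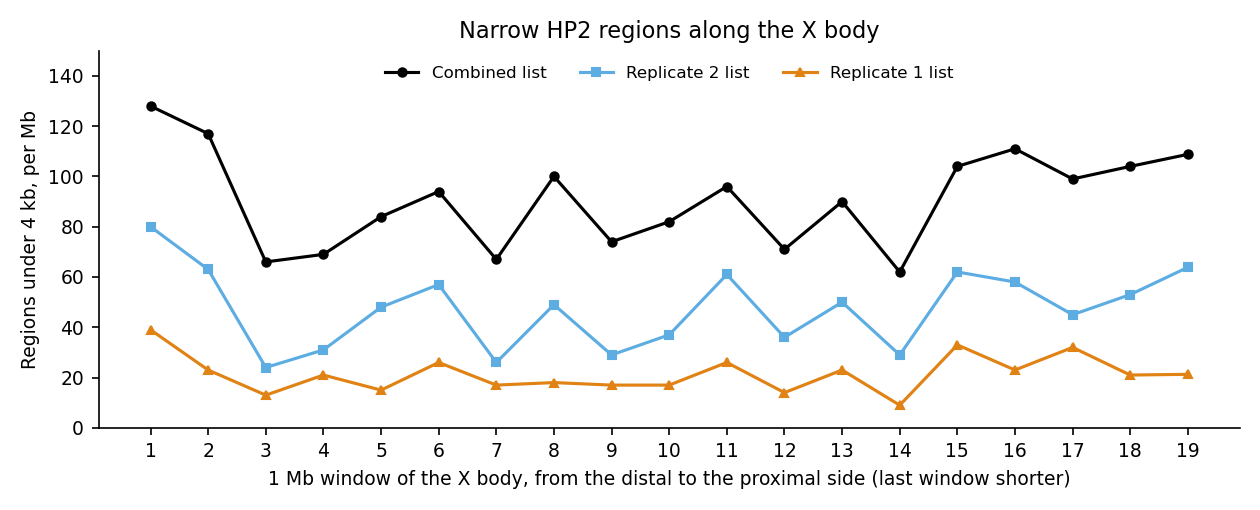
Density of regions under 4 kb (per Mb, vertical axis) in windows of 1 Mb of the X body, numbered from the distal to the proximal side, in the combined list and in each replicate list. Window 19 is shorter than 1 Mb. The first window is the highest in all 3 lists, at 128, 39 and 80 per Mb in the combined, replicate 1 and replicate 2 lists, and window 14 is the lowest in the combined and replicate 1 lists.

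Distances between neighbouring narrow regions varied widely. The median distance from one X region to the next was 3.93 kb (quartiles 1.10 and 10.1 kb). Of the 1663 distances, 938 or 56.4% were at most 5 kb, against 53.5% on 2L, 52.7% on 3L and 52.9% on 3R. The longest stretches of the X body without a narrow region were 6267933 to 6420293 (152 kb), 2701375 to 2816457 (115 kb) and 12869839 to 12983105 (113 kb). Between neighbours among the 204 regions found in both replicates the median distance was 45.7 kb. It was 50.3 kb on 2L, 46.1 kb on 3L, 45.0 kb on 3R and 36.6 kb on 2R. Of the 849 regions found in neither replicate, 164 (19.3%) lay within 1 kb of a cluster of either replicate and 465 (54.8%) within 5 kb. How much of the X body lies within these distances of a cluster was not counted, so these shares are no measure of recurrence. A combined region of at least 4 kb lay within 5 kb of 234 of the 1664 regions (14.1%). The share was 17.2% (35 of 204) for regions found in both replicates and 18.2% (102 of 559) for those found only in replicate 2. It was 13.5% (7 of 52) for those found only in replicate 1 and 10.6% (90 of 849) for those found in neither. These shares were counted on the X only.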

How the data were processed

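The submitters' processing notes name Bowtie 0.12.7 as a tool. The authors deposited 3 lists of regions of significant enrichment, 1 per ChIP replicate and 1 for the replicate set, each region with a start, an end and a score. The sources used here do not state how the deposited score is scaled, what called the regions, at which threshold, or how the replicates were combined. The build is FlyBase release 5, per the file headers, and positions are 1-based. Start and end positions were used as the authors deposited them, and other values follow from them by counting.

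Narrow regions were selected by midpoint and width under 4 kb. The bodies of 2L, 3L, 3R and 2R leave out the distal 1 Mb and the proximal 3 Mb. Overlap means at least 1 bp shared, and a region's replicate score is that of the best-scoring overlapping cluster. Intervals of shares are exact (Clopper-Pearson, 95%). Tests used only the 2 replicates, in exact sign-flip form (scipy 1.17.1). Overlap counting was tested on simulated data. Alternatives were the width limit, the higher-scoring 50%, merging within 1 kb, stricter overlap, other body limits, other windows, leaving out a replicate and, added after seeing the data, 2R. The common score limit on the arms, the split by width and the counts of tied scores were also added after seeing the data. Regions named are the 10 highest-scoring found in both replicates, the 3 highest of each other class, the 3 on each side of the width limit, the 3 narrowest, and the 3 fullest and 3 emptiest windows. The 2 other regions found in neither replicate with a score over 1 were named after their values were seen. So were the regions of a single replicate that were named for their replicate score. The members and lists were chosen with earlier results of these data known. Library depth is unknown, and no input values were used.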

Additional observations from a re-analysis of the deposited data

How the results depend on the processing

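With a width limit of 3 kb the share found in both replicates was 7.89%, the share found in neither 55.9%, the median score 0.406, the median width 1.495 kb and the median spacing 4.87 kb. With a limit of 5 kb the share in both was 14.2% and the spacing 3.54 kb. In the higher-scoring 50% of each list 1028 X regions remained, with 17.9% in both and 48.0% in neither, a median score of 0.451, a median width of 1.70 kb, a median of 55.5 regions per Mb over windows and a spacing of 7.63 kb. There the X density was 3.09 times the autosomal mean in the combined list and 2.17 times on average in the replicate lists. This limit is set on the score, in which the X and the autosomes differ. Merging regions within 1 kb left 1049 X regions, with 10.3% in both, 55.5% in neither, a median score of 0.419, a median of 56.0 per Mb over windows and a spacing of 8.34 kb. An overlap of at least 50% of the region gave 10.6% in both. With 2R among the autosomes the density ratio was 1.20 in the combined list, and over the replicates it averaged 1.12, with 0.94 in replicate 1 and 1.30 in replicate 2. Leaving out a replicate gave shares of 15.4% to 45.9% overlapped in the other one, shares of 54.1% to 84.6% not overlapped in it, and density ratios of 1.02 to 1.43. The number of regions was 1509 at 3 kb, 1730 at 5 kb and 1426 with the other body limits. The other values not given here stayed within the interval or spread of the value reported. No paired analysis was possible because the groups that share replicate numbers are ChIP and input, and the inputs have no values of their own here. The X and the autosomes were compared within each ChIP library. The unknown depth and the smallest widths of the lists limit what the absence of a replicate counterpart can show.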
